A study of Mus musculus with 16 samples.

Results

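Intronic R-loop hotspots of Cdk8, Camk1d, Gphn and Sos2 were described across 8 peak lists of DNA:RNA hybrid immunoprecipitation sequencing (DRIP-seq). An R-loop is a stretch of double-stranded DNA in which an RNA has paired with one strand and displaced the other. The 4 genes were chosen by the fold enrichment of their strongest peak in the wild-type lists: Cdk8, Camk1d and Gphn held the top regions of the lists without RNase R, and Sos2 the top region within a protein-coding gene of the lists with RNase R. Of 77297 peaks in all lists, 51 overlapped the bodies of these genes by at least 1 bp, and they merged into 20 of the 50440 regions of the series. The 4 genes are among 21951 protein-coding genes of the GENCODE M21 annotation of GRCm38.

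All libraries came from NIH/3T3 fibroblasts, established from mouse embryos, that were unedited (WT) or had lost Xpo4 on both alleles through CRISPR-Cas9 editing (KO). Xpo4 encodes exportin 4, which carries cargo out of the nucleus. The study digested genomic DNA with 4 restriction enzymes (AluI, DdeI, MboI and MseI) and captured hybrids with S9.6, an antibody that binds DNA:RNA hybrids. The digested DNA had first been treated with RNase R (RNase R+), which degrades linear but not circular RNA, or mock-treated in reaction buffer (RNase R-). Each of the 4 combinations of genotype and RNase R had 2 replicates, and nothing in the sources used here says whether these came from separate cultures. The comparisons asked which R-loops depended on exportin 4, and which remained after RNase R. R-loops that remain after RNase R were called ciR-loops (R-loops with circular RNA) in the study. The inputs were not analysed here, and peak lists alone can check neither the knockout nor the markers of the cell line.

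The 4 proteins have unrelated roles. Cdk8 encodes the cyclin-dependent kinase of the Mediator kinase module, which links transcription factors to RNA polymerase II. Camk1d encodes a calcium/calmodulin-dependent protein kinase. Gphn encodes gephyrin, which anchors glycine and GABA receptors at inhibitory synapses and makes the molybdenum cofactor in all tissues. Sos2 encodes a guanine nucleotide exchange factor that loads Ras with GTP after growth factor signals. R-loops are best known at promoters and ends of genes with GC skew, at repeats and at ribosomal DNA, and they also form over long transcribed introns.

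The reference sequence around each hotspot is shown first, since the sites differ most in what they are made of. Each is 201 bases of the plus strand of GRCm38 (RefSeq assembly GRCm38.p6), centred on the median summit. In the sites of Cdk8, Camk1d and Gphn, capitals mark bases aligned to the best other place in the genome. In the site of Sos2 and in a weaker site of Camk1d, capitals mark the exact copies of the word of 12 bases found most often.
Cdk8 hotspot, chr5:146261066-146261266: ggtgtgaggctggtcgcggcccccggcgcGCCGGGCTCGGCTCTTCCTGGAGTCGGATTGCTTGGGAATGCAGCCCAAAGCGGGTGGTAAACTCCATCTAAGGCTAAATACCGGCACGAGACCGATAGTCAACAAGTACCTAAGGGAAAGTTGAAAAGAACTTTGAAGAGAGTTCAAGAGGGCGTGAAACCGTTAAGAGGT
Camk1d hotspot, chr2:5379214-5379414: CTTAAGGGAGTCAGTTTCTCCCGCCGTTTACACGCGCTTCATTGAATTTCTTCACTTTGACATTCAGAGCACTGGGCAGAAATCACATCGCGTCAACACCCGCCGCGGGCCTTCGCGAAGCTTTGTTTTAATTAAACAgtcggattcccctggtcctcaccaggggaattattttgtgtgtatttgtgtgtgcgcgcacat
Gphn hotspot, chr12:78350906-78351106: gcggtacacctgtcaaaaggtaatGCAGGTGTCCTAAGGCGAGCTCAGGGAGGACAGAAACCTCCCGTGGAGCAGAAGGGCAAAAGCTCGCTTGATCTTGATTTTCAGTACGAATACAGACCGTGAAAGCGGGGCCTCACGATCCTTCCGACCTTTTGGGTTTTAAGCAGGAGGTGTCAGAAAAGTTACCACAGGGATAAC
Sos2 hotspot, chr12:69654102-69654302: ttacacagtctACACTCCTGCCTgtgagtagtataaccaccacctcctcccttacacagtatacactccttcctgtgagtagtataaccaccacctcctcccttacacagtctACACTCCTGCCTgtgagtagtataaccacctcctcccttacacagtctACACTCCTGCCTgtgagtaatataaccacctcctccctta
Camk1d second site, chr2:5318930-5319130: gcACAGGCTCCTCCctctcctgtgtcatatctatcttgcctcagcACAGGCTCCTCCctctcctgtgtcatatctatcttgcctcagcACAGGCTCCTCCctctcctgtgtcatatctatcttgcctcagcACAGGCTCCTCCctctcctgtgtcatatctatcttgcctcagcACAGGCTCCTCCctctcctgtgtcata

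The hotspots of Cdk8, Camk1d and Gphn each had many partial copies elsewhere in the genome, and that of Sos2 had none. The merged Cdk8 region (433 bp) matched 11 other nuclear places, the Camk1d region (642 bp) 44 and the Gphn region (492 bp) 53, at an E-value of at most 1e-10. The Sos2 region (533 bp) matched only itself. No region matched the mitochondrial genome, and no 2 of the 5 sites shown matched each other (0 matches over 10 pairs). From general knowledge of ribosomal RNA, the letters of the Cdk8, Camk1d and Gphn sites read like stretches of the nuclear large-subunit rRNA, those of Camk1d on the opposite strand. This likeness was not scored, because a complete large-subunit rRNA was not used here. The RefSeq annotation holds 65 rRNA genes, among them Rn28s1 with 420 bases of that rRNA, and 0 of the 141 matches of the 5 sites lay in one. Since Rn28s1 holds only part of that rRNA, nothing about the likeness is read from the 0.

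The best copy of the Cdk8 site lay at chr3:62159047-62159321, outside annotated genes, with 89.1% identity over 275 aligned bases. It was called in the same 6 lists as the Cdk8 hotspot, with lower folds of 15.5 and 22.2 in the WT RNase R- replicates and 10.9 to 20.6 in the 4 KO lists. The best copy of the Camk1d site lay at chr3:5860319-5860632, also outside annotated genes, with 95.2% identity over 314 aligned bases. It too was called in the same 6 lists, at folds of 39.7 and 15.3 in WT RNase R- and 19.5 to 23.9 in the 4 KO lists. The best copy of the Gphn site was an exon of Lars2, the gene of the mitochondrial leucyl-tRNA synthetase, at chr9:123461792-123462035, with 97.5% identity over 244 aligned bases. At Lars2 the fold was 23.6 and 29.2 in WT RNase R-, 204 and 242 in KO RNase R- and 244 and 268 in KO RNase R+. Lars2 was above Gphn in all 4 KO lists, whose folds did not enter the choice of the genes. In both WT RNase R- lists Lars2 was below Gphn. Lower WT folds at the copies than at the hotspots follow from the choice of the hotspots by WT fold. No change of order between WT and KO is therefore read from these folds.

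Peaks were also called at other copies, though not always in the lists of the hotspot. Of the 53 places like Gphn, 15 held a peak in at least 1 list, as did 24 of the 44 like Camk1d and 3 of the 11 like Cdk8. Some followed the hotspot in part only: the fourth-best copy of Cdk8 was called in KO RNase R- alone, at 7.05 and 6.86, and the fifth-best of Camk1d in 3 KO lists, at 4.44 to 9.52. None of these places held a peak in either WT RNase R+ list (0 for each of the 3 sites), where only 435 of the 50439 nuclear regions of the series (0.862%) were called at all, so nothing is read from the 0. The authors kept only reads with a unique position, so a peak at 1 copy rests on reads that matched it better than other places of the reference. This filter cannot tell whether a read came from sequence missing from the reference. Whether part of the reads at a hotspot came from another copy, or from sequence missing from the reference, was not tested.

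The Sos2 hotspot and the weaker Camk1d site were tandem repeats. In the Sos2 region the commonest word of 12 bases occurred 5 times, at spacings of 48 to 102 bp with a median of 49 bp. Shifted by 51 bp, the 301 bases around the Sos2 summit were 69.6% identical to themselves, the 92.1st percentile of 50323 called regions. The weaker Camk1d site repeated exactly every 43 bp, with 12 copies of its commonest word and a self-identity of 100% (the 99.9th percentile). At the hotspots of Cdk8, Camk1d and Gphn no word of 12 bases occurred more than 1 time, and their self-identities of 35.1%, 32.0% and 34.8% were below the median of 43.7% over all regions.

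The sites also differed in base composition. The GC content of the 301 bases was 60.8% at Cdk8, 48.2% at Camk1d, 52.2% at Gphn and 48.5% at Sos2, against a median of 42.9% over all regions. GC skew, the excess of G over C divided by their sum on the plus strand, was -0.51 at Sos2 and -0.48 at the weaker Camk1d site, the tandem repeats, and between 0.02 and 0.18 at the hotspots of Cdk8, Camk1d and Gphn. Sos2 is transcribed from the minus strand, so its hotspot is rich in G on the strand that has the sequence of the RNA. Bases masked as repeats in the reference made up 0% of the windows of Cdk8 and Gphn, 24.3% of that of Camk1d and 6.98% of that of Sos2, against a median of 68.4% over all regions.

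The restriction enzymes had no site near the Sos2 summit and several at the others. The motifs searched on both strands were TTAA (MseI), CTNAG (DdeI), AGCT (AluI) and GATC (MboI), none of which contains another. The window of 301 bases held 0 motifs at Sos2, 4 at Cdk8, 4 at Camk1d and 8 at Gphn, and 89.2% of the windows of all regions held at least 1. The nearest motifs on either side of the summit were 369 bp apart at Sos2, 117 bp at Camk1d, 47 bp at Gphn and 42 bp at Cdk8, with a median of 241 bp over 50288 regions. The peaks of Cdk8, which span 401 to 432 bp, were thus far longer than the 42 bp between the motifs around their summit.

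The hotspots lay deep within introns. The Cdk8 hotspot (ENSMUSG00000029635.15, gene at chr5:146231230-146302874, plus strand) was at chr5:146260937-146261369, in intron 2 of 12 of transcript Cdk8-201, 29.9 kb from the gene start and 1.18 kb from the nearest exon. The Camk1d hotspot (ENSMUSG00000039145.16, gene at chr2:5293457-5714515, minus strand) was at chr2:5379024-5379665, in intron 3 of 10 of Camk1d-201, 335 kb from the gene start and 17.2 kb from the nearest exon. The Gphn hotspot (ENSMUSG00000047454.12, gene at chr12:78226379-78684772, plus strand) was at chr12:78350741-78351232, in intron 2 of 22 of Gphn-202, 125 kb from the gene start and 7.58 kb from the nearest exon. The Sos2 hotspot (ENSMUSG00000034801.13, gene at chr12:69583762-69681852, minus strand) was at chr12:69653892-69654424, in intron 2 of 22 of Sos2-201, 27.6 kb from the gene start and 3.47 kb from the nearest exon. Each position was the same across libraries within less than 100 bases. The summit of Cdk8 was at the identical base in its 6 lists (a range of 0 bp), and the ranges were 9 bp for Sos2 over 8 lists, 37 bp for Gphn over 6 and 86 bp for Camk1d over 6.

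**Figure D1:**
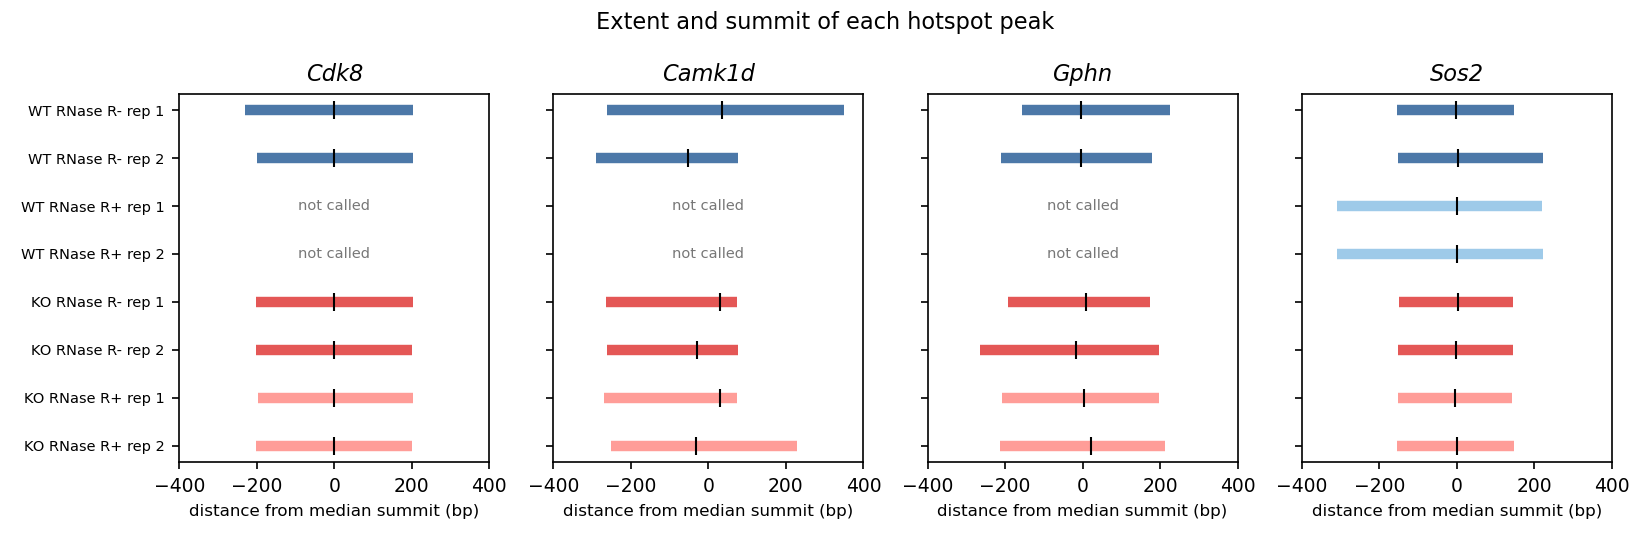
Start, end and summit of the hotspot peak of each gene in each of the 8 lists, as distance in bp from the median summit of the gene along the plus strand. Bars are peaks coloured by group and ticks are summits; Cdk8, Camk1d and Gphn have no bar in the WT RNase R+ lists, and the Sos2 bars of those lists (531 and 533 bp) are longer than those of KO (296 to 302 bp).

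Fold enrichment is the summit height over the level that the peak caller expected there, each with 1 added. At Cdk8 the fold was 122 and 125 in the WT RNase R- replicates, 185 and 170 in KO RNase R- and 167 and 165 in KO RNase R+. No peak was called in either WT RNase R+ replicate, and all 4 KO values lay above both WT values. At Camk1d the fold was 68.0 and 92.0 in WT RNase R-, 46.7 and 69.5 in KO RNase R- and 62.4 and 54.2 in KO RNase R+. Here too the WT RNase R+ lists held no peak, and the KO and WT values overlapped. At Gphn the fold was 48.9 and 74.2 in WT RNase R-, 90.1 and 80.7 in KO RNase R- and 90.4 and 83.6 in KO RNase R+. Again nothing was called in WT RNase R+, and the KO values lay above those of WT. At Sos2 the fold was 39.8 and 47.3 in WT RNase R-, 38.2 and 31.6 in WT RNase R+, 32.7 and 29.2 in KO RNase R- and 26.0 and 31.8 in KO RNase R+. Sos2 was the one hotspot called in all 8 lists, and its WT RNase R- values lay above those of both KO groups. Since the genes were chosen by WT folds, the WT values and their distance from KO are descriptions and were not tested.

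**Figure D2:**
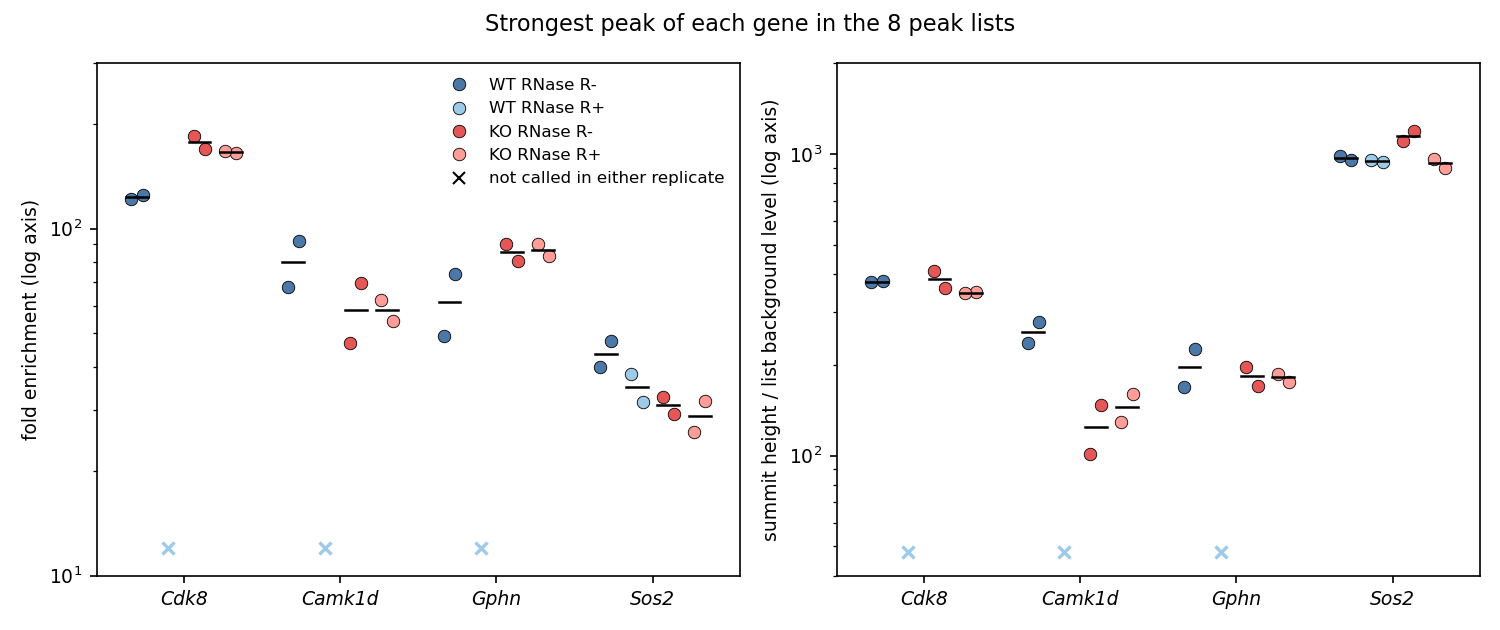
Fold enrichment (left) and summit height divided by the background level of the list (right), both on log axes, at the hotspot of each gene. Each point is 1 library, black lines are the means of the 2 replicates, and crosses at the foot mark groups in which neither replicate has a peak; Cdk8 is the highest by fold, at 122 to 185, and Sos2 the highest by height, at 898 to 1192 times background.

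The height of a summit and the level expected there, both in fragments, were recovered from fold and p, and they gave another picture of the same sites. The Cdk8 summit was covered by 180 and 185 fragments in WT RNase R-, 345 and 322 in KO RNase R- and 320 and 310 in KO RNase R+. The lowest expected level of a list, its background, was also lower in WT RNase R- (0.479 and 0.489 fragments) than in KO RNase R- (0.843 and 0.896) and KO RNase R+ (0.924 and 0.890). Divided by that background, the Cdk8 height was 377 ± 1.82 (SD, n = 2) in WT RNase R-, 384 ± 35.2 in KO RNase R- and 347 ± 1.34 in KO RNase R+. The higher fold of Cdk8 in KO was therefore not seen on this scale without RNase R, where the KO replicates, at 409 and 359, lay on either side of those of WT, at 376 and 378.

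The Gphn summit likewise had more fragments in KO and a like height over background. It was covered by 81 and 110 fragments in WT RNase R-, 165 and 152 in KO RNase R- and 173 and 157 in KO RNase R+. Over background this was 197 ± 39.5 (SD, n = 2), 183 ± 18.4 and 182 ± 7.69, and the groups overlapped. The Camk1d summit was covered by 113 and 136 fragments in WT RNase R-, 85 and 132 in KO RNase R- and 119 and 142 in KO RNase R+. Over background, Camk1d was at 257 ± 29.9 (SD, n = 2) in WT RNase R-, 124 ± 32.9 in KO RNase R- and 144 ± 21.7 in KO RNase R+. On this scale both WT values of Camk1d, 236 and 278, lay above all 4 KO values.

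The Sos2 summit was the tallest of the 4 in every list, and it stood on a raised expected level. It was covered by 470 and 467 fragments in WT RNase R-, 406 and 525 in WT RNase R+, 930 and 1068 in KO RNase R- and 888 and 799 in KO RNase R+. Over background its height was 968 ± 18.5 (SD, n = 2) in WT RNase R-, 948 ± 10.9 in WT RNase R+, 1147 ± 63.0 in KO RNase R- and 929 ± 44.9 in KO RNase R+. The level expected at Sos2 was 18.2 to 39.8 times the background of its list. At the other hotspots the expected level was 1.00 to 1.84 times background. The lower fold of Sos2 thus went with a higher denominator and not with a lower summit. Which library the caller used as its control is not stated, and the source of the raised level was not tested.

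**Figure D3:**
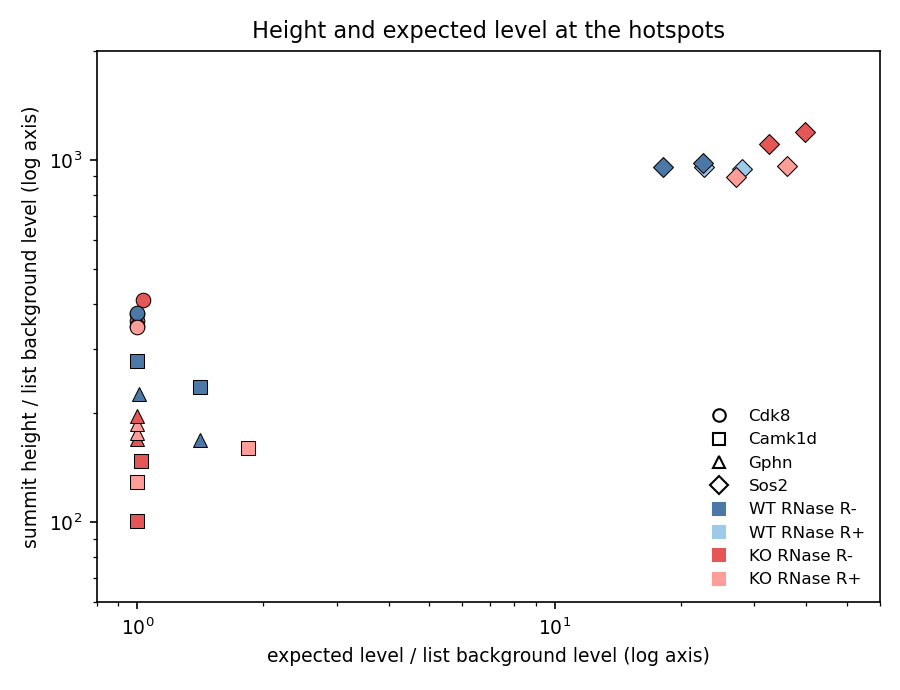
Summit height against expected level at the hotspots, both divided by the background level of the list, on log axes. Each point is 1 peak of 1 list, with the shape giving the gene and the colour the group; the 8 Sos2 points lie apart at expected levels of 18.2 to 39.8 times background, and the 18 others lie between 1.00 and 1.84.

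Within their lists Cdk8, Camk1d and Gphn ranked higher by fold than by height, while Sos2 varied. Cdk8 was first by fold in both WT RNase R- lists and at rank 3 or 4 in the KO RNase R- lists (of 26218 and 32030 nuclear peaks) and in the KO RNase R+ lists. Its rank by height was 70 and 62 in WT RNase R- and between 38 and 97 in KO. Gphn ranked 8 to 11 by fold in the KO lists, and Camk1d 14 to 31. Sos2 ranked 61 and 79 by fold in KO RNase R- but 18 and 16 by height, and 72 and 45 by fold in KO RNase R+ against 81 and 79 by height.

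The threshold of the choice ran close behind Gphn. By the lower fold of both WT RNase R- replicates, the top regions were Cdk8 (122), Camk1d (68.0) and Gphn (48.9), followed by a region of chromosome 18 outside protein-coding genes (44.9). In the WT RNase R+ lists a region of chromosome 12 outside protein-coding genes came first (32.3), then Sos2 (31.6), the same region of chromosome 18 (30.5) and a region of Ndst3 (30.2), a heparan sulfate sulfotransferase gene.

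Calls after RNase R differed among the hotspots in WT and not in KO. In WT, 1 of the 4 hotspots, Sos2, was called in both RNase R+ replicates, and the other 3 in neither. Among all 658 regions called in both WT RNase R- replicates, 97 (14.7%; 95% Wilson interval 12.2 to 17.7%) were called in both RNase R+ replicates. In KO, 4 of 4 hotspots were called in both RNase R+ replicates, against 1521 of 14185 regions (10.7%; 10.2 to 11.2%). Strong regions were those with a fold of at least 20 in both RNase R- replicates. Of these, 88.5% of 156 in KO and 31.6% of 38 in WT were called in both RNase R+ replicates. The 2 shares are not of like classes, since a given fold stands on a higher background level in KO. The WT RNase R+ lists were also far shorter than those of KO RNase R+ (271 and 352 peaks against 6372 and 5996). In them, 41.7% and 37.2% of peaks had an expected level over 3 times background. That share was 6.05% and 11.2% in WT RNase R-, and 3.91 to 7.22% in the KO lists. The Sos2 hotspot was such a peak in every list. Calls after RNase R in WT and KO are therefore not of like kind. The 4 of 4 of the hotspots is near the 88.5% of strong KO regions. The intervals cover counting error only, and the choice of Sos2 from the WT RNase R+ lists fixed its call there. The split of the hotspots in WT is therefore a description of chosen sites.

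The WT RNase R+ lists were short, with 271 and 352 peaks against 3885 and 2171 in WT RNase R-. Where the expected level was at background, the lowest summit called in them had 7 and 8 fragments, at folds of 5.62 and 5.75. The Cdk8 summit had 180 and 185 fragments in WT RNase R-, far more than these lowest called summits. The lists do not tell how many fragments an uncalled site had, nor whether a raised expected level kept it out, so no fold is given for the loss.

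Over all 8 lists, 3 of the 4 hotspots (Cdk8, Camk1d and Gphn) had a peak in 6 lists, all but those of WT RNase R+. Of 632 regions called in both WT RNase R- replicates when peaks of all lists were merged, 188 (29.7%) were called in the 4 KO lists, and 135 (21.4%) in these and in neither WT RNase R+ list. Of 162 regions called in both WT RNase R+ replicates, 36 (22.2%) were called in all 8 lists, as Sos2 was. These 3 shares are those of WT regions at large, and the choice of the members from the WT lists leaves nothing to read from their own counts.

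In KO the mean folds with and without RNase R were close at all 4 hotspots, though the replicates of Camk1d varied widely. The KO folds did not enter the choice of the genes and were tested on the log2 scale by an exact permutation test, two-sided, of 2 replicates against 2, in which the smallest possible p is 0.33. The difference, RNase R+ minus RNase R-, was -0.10 at Cdk8 (pooled SD 0.06, exact p = 0.33), 0.03 at Camk1d (SD 0.30, exact p = 1.00), 0.03 at Gphn (SD 0.10, exact p = 0.67) and -0.10 at Sos2 (SD 0.17, exact p = 0.67). Adjusted over all 1523 nuclear regions called in the 4 KO lists by Benjamini-Hochberg, the exact permutation p was 0.68 at Cdk8, 1.00 at Camk1d and 0.86 at Gphn and Sos2. The median difference over these regions was -0.23, and 0 of them passed an adjusted p of 0.05, which this exact test of 2 against 2 cannot reach. Regions no longer called after RNase R have no fold there and are absent from this median. Both RNase R+ folds were below both RNase R- folds at 1 of the 4 hotspots, Cdk8, and at 584 of the 1523 regions (38.3%), so the hotspots' count is near the background. At Sos2 the folds of both treatments overlapped. On the scale of height over background its difference was -0.30, against a median of -0.27 over the same regions. On that scale both RNase R+ values lay below both RNase R- values at 2 of the 4 hotspots, Cdk8 and Sos2, and at 700 of the 1523 regions (46.0%), again near the background.

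Besides its hotspot, Cdk8 held no peak in any list. Camk1d held 9 merged regions, Gphn 6 and Sos2 4, and of the 20 regions in the 4 genes 19 were intronic by the median summit, 1 lay at a promoter (within 1000 bp of the gene start) and 0 lay in an exon. Only 5 of the 20 regions were called in at least 6 lists, namely the 4 hotspots and the weaker Camk1d site, and 11 were called in 1 list.

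The weaker Camk1d site, at chr2:5318712-5319228 in intron 6, shared the pattern of calls of the Camk1d hotspot. Its fold was 20.3 and 21.5 in WT RNase R-, 10.3 and 6.33 in KO RNase R- and 10.9 and 12.2 in KO RNase R+. Over background its height was 60.5 and 63.4 in WT RNase R- and 12.3 to 24.7 in the 4 KO lists, so that, as at the Camk1d hotspot, all KO values lay below those of WT on that scale. It stood 60.3 kb from the hotspot, and its summit had 11 to 31 fragments in the 6 lists.

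The other peaks of the 4 genes were weak and mostly of KO RNase R- libraries. In Camk1d, a site in intron 2, 261 kb from the gene start, was called in KO RNase R- replicate 1 and KO RNase R+ replicate 2, at folds of 9.08 to 10.6. In Gphn, a site 80 bp from an exon at the end of intron 6 was called in both KO RNase R- replicates, at folds of 8.93 to 13.5. The promoter peak of Gphn, at chr12:78226228-78226695, was called in KO RNase R- replicate 2 at a fold of 4.64. In Sos2, 3 intronic sites were called in KO RNase R- replicate 2 alone, at folds of 4.22, 4.89 and 6.06. The strongest peak seen in WT alone was in intron 20 of Gphn, with a fold of 12.2 in WT RNase R- replicate 1.

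**Figure D4:**
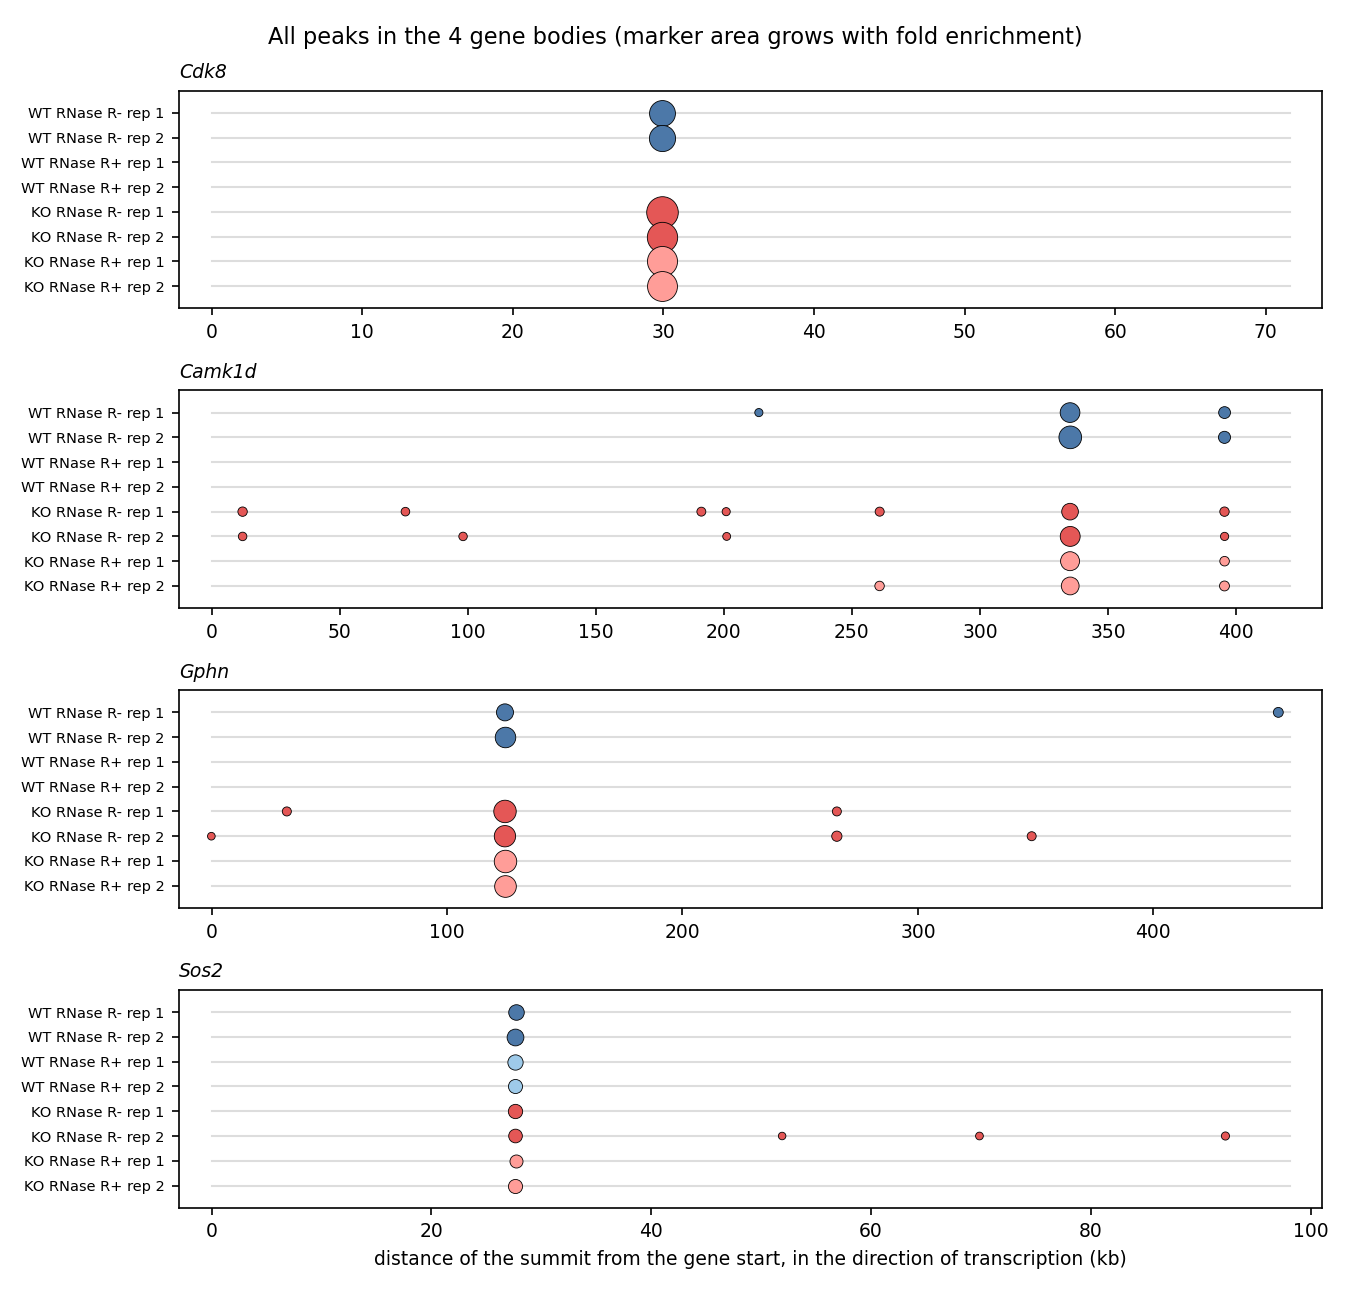
All 51 peaks in the bodies of Cdk8, Camk1d, Gphn and Sos2, placed by the distance of the summit from the gene start in kb along the direction of transcription, with 1 line per list. Marker area grows with fold enrichment and colour gives the group; 1 strong site recurs in each gene, and most of the small markers belong to the KO RNase R- lists.

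In number, the 4 genes held 7 and 5 peaks in the WT RNase R- replicates, 1 and 1 in WT RNase R+, 12 and 14 in KO RNase R- and 5 and 6 in KO RNase R+. Over their 1.05 Mb, peaks other than the hotspots came to 7.62 and 9.53 per Mb in KO RNase R-, where all protein-coding gene bodies held 11.2 and 13.6 per Mb. In WT RNase R- they came to 2.86 and 0.953 per Mb against 1.34 and 0.749. Apart from the hotspots, the genes thus held no more peaks per Mb than other gene bodies in KO RNase R-. At least 1 peak was present in 4 of 4 genes in WT RNase R- (6.62% of all protein-coding genes), 1 of 4 in WT RNase R+ (0.679%), 4 of 4 in KO RNase R- (40.6%) and 4 of 4 in KO RNase R+ (14.3%). The WT counts follow from the choice of the genes. In KO the chosen hotspot is by itself enough to give each gene a peak, though Camk1d, Gphn and Sos2 held other KO peaks too. The genes are also long, at 71.6 to 458 kb against a median of 17.4 kb over all protein-coding genes.

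Peaks in the genes of partners of the 4 proteins were described beside all protein-coding genes. Lower folds than at the hotspots follow in WT from the choice of the hotspots. Of 42 other genes of the Mediator kinase module, the calcium/calmodulin kinase cascade, gephyrin and molybdenum cofactor biology, and Ras activation, 5 (11.9%) held a peak in WT RNase R-, 0 in WT RNase R+, 27 (64.3%) in KO RNase R- and 8 (19.0%) in KO RNase R+. Over all protein-coding genes the shares were 6.62%, 0.679%, 40.6% and 14.3%. The 42 genes are long, with a median of 50.1 kb against 17.4 kb over all protein-coding genes, and a longer gene has more room for a peak. In the Mediator kinase module, 5 of 6 genes other than Cdk8 held a peak in KO RNase R-, among them the paralog Cdk19, with folds of 7.48 and 10.5 at a shared site. Med13l, a module subunit, was the 1 gene of that list with a peak in KO RNase R+, at folds of 9.36 and 7.44.

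In the calcium/calmodulin cascade, 5 of 9 genes other than Camk1d held a peak in KO RNase R- and 2 in KO RNase R+. Calm2, one of the genes of calmodulin, had the highest fold of all 42 genes, 20.6 in KO RNase R- replicate 2. In the gephyrin and molybdenum cofactor list, 6 of 12 genes held a peak in KO RNase R- and 3 in KO RNase R+. Among them were Glrb, the glycine receptor subunit that binds gephyrin (10.6 in KO RNase R- replicate 2 and 8.84 in KO RNase R+ replicate 1), and Xdh, an enzyme that uses the cofactor (up to 15.1 in KO RNase R- and 12.9 in KO RNase R+). In the Ras activation list, 11 of 15 genes held a peak in KO RNase R- and 2 in KO RNase R+. Sos1, the paralog of Sos2, had folds of 5.20 to 6.46 in KO RNase R- and 7.94 in KO RNase R+ replicate 2, all below the lowest fold of the Sos2 hotspot, 26.0.

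Regions of protein-coding genes called in the same lists as a hotspot were ranked by likeness to it; regions outside protein-coding genes were not ranked. The likeness of 2 regions was the root mean square difference of their log2 folds over the lists in which both were called. These lists include those of WT, by whose folds the members were chosen. Likeness among the members is therefore a description. Of 135 regions called in the same 6 lists as Cdk8, Camk1d and Gphn, 38 lay in protein-coding genes. Among these 38, Gphn and Camk1d were each other's nearest (0.57), followed for both by regions of Jarid2, a Polycomb cofactor gene (0.77 for Camk1d and 0.87 for Gphn), and Ttc21b, a ciliary transport gene (0.91 and 0.93). For Cdk8 the nearest were Gphn (1.02), Camk1d (1.36) and Lars2 (1.36). Of 36 regions called in all 8 lists, 7 lay in protein-coding genes, and among these the nearest to Sos2 were those of Mov10, an RNA helicase gene (0.61), Ppp1r9a, the neurabin gene (1.15), and Epha3, an ephrin receptor gene (2.03).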

How the data were processed

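DRIP-seq peak lists of 8 immunoprecipitated libraries were used, 2 per combination of genotype and RNase R, grouped by the sample labels. The authors trimmed reads, aligned them to GRCm38 with Bowtie2, removed duplicates and reads without a unique position (SAMtools 1.1, per the labels) and called peaks with MACS2 in each library at a q of 0.001; the control given to the caller is not stated. The deposited fold enrichment is a ratio, with 1 added to both terms. The deposited p and q values are −log10 values, and the deposited score was not used. The peak names in the list of WT RNase R- replicate 1 are those of the other replicate, while its values are its own.

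The deposited lists hold no read totals, and those the study gives elsewhere were not used here; the caller's background level in each list stood in as its scale. A whole summit height was recovered for 77277 of 77297 peaks (within 0.01 of the −log10 p), and for 51 of the 51 peaks of the 4 genes. No peak ended past its chromosome in the GRCm38.p6 reference (0 of 77297), and 392 lay on scaffolds. Copies were searched with blastn 2.17.0 (E-value 1e-10). Python 3.11.15 with scipy 1.17.1 was used, and the code was tested on simulated data.

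The members and lists were chosen with earlier results of these data known. Named genes were the members, list genes with a peak, the 3 regions most like each hotspot, and the regions next to the members by WT fold. The plan adjusted p over the 4 genes; since these were selected, p was adjusted over all regions instead. Same-numbered KO replicates did not deviate together (r = 0.009 over 1524 regions), so numbers were not taken as pairs. Alternatives are given in the closing section.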

Additional observations from a re-analysis of the deposited data

How the results depend on the processing

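Of 54 alternatives run on the KO effect of RNase R, the peak numbers and the shares of regions, 43 gave the same reading, 5 moved and 6 turned the sign of a KO effect that was not called. For a KO effect, the same reading means only that the sign was kept, whatever the size. With height over background, the effect at Camk1d went from 0.03 to 0.23 and that at Sos2 from -0.10 to -0.30. The sign turned at Camk1d (0.03) without KO RNase R- replicate 1 (-0.26) and without KO RNase R+ replicate 1 (-0.07), the range over left-out libraries being -0.26 to 0.32. At Gphn (0.03) it turned to -0.00 with height over background, to -0.05 without KO RNase R- replicate 2 and to -0.03 without KO RNase R+ replicate 1 (range -0.05 to 0.11). At Sos2 (-0.10) it turned to 0.04 without KO RNase R+ replicate 1 (range -0.25 to 0.04). The Cdk8 effect kept its sign, from -0.16 to -0.04. With same-numbered libraries paired (replicate block), the effects were -0.10, 0.03, 0.03 and -0.10 for Cdk8, Camk1d, Gphn and Sos2. By arithmetic these equal the effects without pairing, so their same reading was fixed in advance. Only p could differ (exact sign-flip p 0.50, 1.00, 0.50 and 1.00), and the smallest p that this sign-flip test can give is 0.50.

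The share of RNase R- regions also called in RNase R+ moved from 14.7 to 20.4% in WT and from 10.7 to 27.2% in KO when 1 replicate was enough, and to 31.6 and 88.5% for folds of at least 20. Peaks in the 4 genes per KO RNase R- library fell from 13 to 5.50 at a fold of at least 10, so most of these peaks had folds under 10. With 2 libraries a group, the exact permutation test used here could not pass a threshold of 0.05, and a site missing from a list has no measured value.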
